A study of Mus musculus with 12 samples.

Results

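The genes described here encode enzymes that oxidize, hydrolyze or conjugate drugs, steroids, bile acids, retinoids and reactive aldehydes. They were chosen by symbol from the deposited table of normalized counts as the cytochrome P450 genes of families Cyp1 to Cyp4, the flavin monooxygenases (Fmo), carboxylesterases (Ces), aldehyde dehydrogenases (Aldh), aldo-keto reductases of family Akr1, UDP-glucuronosyltransferases (Ugt), glutathione S-transferases (Gst) and sulfotransferases (Sult), without pseudogenes. Of 225 annotated genes that meet this rule, 109 were among the 15687 genes listed in the table and 116 were not. The 109 were 29 Cyp, 3 Fmo, 10 Ces, 18 Aldh, 13 Akr1, 10 Ugt, 19 Gst and 7 Sult genes. The study asked what follows in a lung tumor when FILIP1L, a protein often lost in lung adenocarcinoma, is knocked down. RNA was sequenced from 12 tumors that grew under the skin from mTc11, a lung cancer line of the mouse, in male C57BL6/J mice that were 8 weeks old at injection. Cells were injected in growth factor-reduced Matrigel, the mice were immune competent, and all tumors were taken on day 24. The 6 CTL tumors came from cells with a scrambled shRNA (shControl, labelled genotype WT) and the 6 *Filip1l*-knockdown tumors from cells with a *Filip1l* shRNA (labelled Filip1l KD). Both cell populations had been transduced with lentivirus, selected with puromycin and used as mixed clones. An effect of the knockdown and any other difference between these cell populations cannot be told apart. The knockdown cells were made with 2 shRNA sequences, and which of them the sequenced tumors carried is not stated in the sources used here. Each tumor is bulk RNA of cancer cells and host cells, so a change in the number of expressing cells and a change in RNA per cell cannot be told apart.

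Enzymes of this kind act in steps. In phase I, P450s, flavin monooxygenases, carboxylesterases and dehydrogenases add or expose a polar group. In phase II, transferases attach glucuronic acid, glutathione or sulfate, and transporters then carry the product out of the cell. The liver is the main site, and the intestinal epithelium and the airway express their own sets. Nuclear receptors such as PXR (*Nr1i2*) and FXR (*Nr1h4*), with HNF4A and CDX2, are known to drive many of these genes in liver and gut. Members of the ALDH1A group make retinoic acid from retinal, which links this gene set to vitamin A signaling.

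A value is the number of reads on a gene divided by the tumor's size factor (normalized counts). It can be compared between tumors for the same gene, and levels of different genes are compared below only per kilobase of exon. Groups were compared with limma on log2 of the value plus 1. A gene was called at an adjusted p under 0.05, over all 15687 genes, with an absolute log2 fold change over 1. The tumors had 17834745 to 32419578 reads on listed genes, and 1 read was worth 0.865 to 1.49 normalized counts. *Filip1l* itself ran from 1983 to 2542 normalized counts in CTL and from 1670 to 2184 in *Filip1l*-knockdown tumors (log2 fold change -0.26, standard error 0.07, adjusted p = 0.00998), with overlapping groups. This is RNA of the whole tumor. For the protein, a different measure, the study reported less FILIP1L by staining of knockdown tumors. It also checked the knockdown by immunoblot of the mTc11 cells.

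The tumors were checked against marker genes before the enzymes were read. Epithelial *Cdh1* was abundant in all 12 tumors, at 25842 to 32745 normalized counts in CTL and 23659.5 to 31489.8 in *Filip1l*-knockdown tumors. The lung lineage factor *Nkx2-1* ran from 0.947 to 37.3 and from 4.90 to 90.6, and surfactant gene *Sftpc* from 0 to 53.0 and from 0 to 60.5. Surfactant gene *Sftpd* was at 832 to 2408 and 1566 to 2939.8, and *Sftpb*, which was called higher, at 0.947 to 94.1 and 17.6 to 760.02. Of the club cell list only *Scgb3a1* and *Reg3g* were listed. Intestinal enterocyte markers were measured in 11 genes, of which 9 were called higher in *Filip1l*-knockdown tumors. Their summed level was 16095 to 22306 normalized counts in CTL and 51260.0 to 110894 in *Filip1l*-knockdown tumors. Lung epithelium and carcinoma markers were called higher in 4 of 9 genes, neutrophil markers in 5 of 5 and skeletal muscle markers in 5 of 6. Limma called 0 of 7 fibroblast, 0 of 6 macrophage and 0 of 5 endothelial markers. Over all 15687 genes 10.2% were called, 6.2% higher and 3.97% lower. At that share 0 calls in lists this short do not show that the markers were unchanged. The adjusted p alone was passed by 3 fibroblast markers, 1 with a higher and 2 with a lower value. It was also passed by 1 macrophage and 4 endothelial markers, all with higher values, and by 4970 of all 15687 genes. At an unadjusted p under 0.05 the macrophage list held 2 genes and the endothelial list 5, all with higher values. Gastric markers were called higher in 3 and lower in 1 of 7 genes, adipocyte markers higher in 2 of 4, both listed club cell markers higher, and skin markers lower in 1 of 5. *Filip1l*-knockdown replicate 1 stood apart from its group. It had the lowest summed epithelial level of its group (190049 normalized counts, against 260913 to 354712) and the highest summed fibroblast level (251307, against 74410.4 to 157319). In CTL tumors the epithelial sum was 136289 to 177442, below every *Filip1l*-knockdown tumor, and the fibroblast sum 159170 to 258775. For the fibroblast sum, replicate 1 lay inside the CTL range and the other *Filip1l*-knockdown tumors lay below it. The part of these cell type markers in the enzyme results was not tested.

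Liver transcripts marked 3 tumors, which were CTL replicate 5 and *Filip1l*-knockdown replicates 1 and 2. *Alb*, the albumin gene of hepatocytes, was at 5043, 3646 and 5009.9 normalized counts there and at 11.7 to 533 in the other 9 tumors. Among these 9, CTL replicates 4 and 6 and *Filip1l*-knockdown replicate 6 were at 362, 408 and 533. The rest were at 11.7 to 39.0. The same 3 tumors held the highest values of 22 of the 109 enzyme genes (20.2%), each of the 3 above every other tumor. Over all listed genes this order was seen in 132 of 15687 (0.841%). The order was looked for after the values had been seen, and it is given as a description. *Cyp2e1*, a liver P450 that oxidizes ethanol, was at 389 to 545 normalized counts in the 3 tumors and reached 52.2 in the others. *Cyp3a11*, a main liver P450 for drugs, was at 176 to 204 and reached 12. *Cyp4a14*, which hydroxylates fatty acids, was at 128 to 179, and *Akr1c6*, a liver hydroxysteroid dehydrogenase, at 36.4 to 74.6. Both were at or under the floor of 3 reads in all 9 other tumors. *Cyp2a12*, *Cyp2c70*, *Cyp2d9*, *Cyp3a25*, *Cyp4a10*, *Ces1c* and *Akr1d1* were also low outside these tumors, with medians of 0 to 0.979 normalized counts. For such genes the group means describe the split of the 3 tumors, 1 in CTL and 2 in *Filip1l*-knockdown, and the log2 fold changes of the 9 genes just named after *Cyp3a11* had standard errors of 1.21 to 1.65. Of the 22 genes, *Cyp2d26*, *Ces1d* and *Ugt2b5* were called. Of the 11 listed hepatocyte markers 1 was called, the apolipoprotein gene *Apoa1*, which the intestine also makes. The part of liver transcripts in other results was not tested, and values without the 3 tumors are given for these 3 called genes where they are described. Such values still include tumors with *Alb* at up to 533 normalized counts, so they are not free of liver transcripts.

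**Figure D1:**
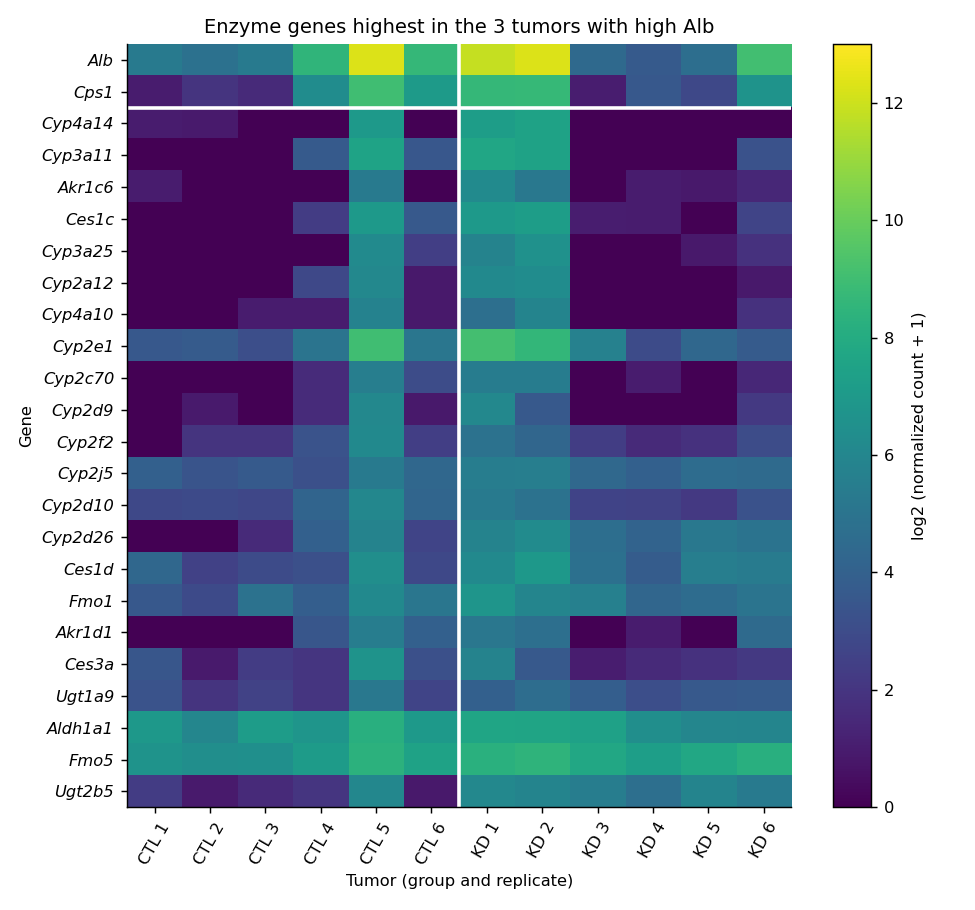
Level of *Alb*, of the hepatocyte marker *Cps1* and of 22 enzyme genes in each of 12 tumors, as colour on a scale of log2 (normalized count + 1). CTL replicate 5 and *Filip1l*-knockdown replicates 1 and 2 hold the 3 highest values of every row, by a wide margin for *Cyp2e1* (389 or more, against at most 52.2 normalized counts in the others) and a narrow one for *Fmo5* (306 or more, against at most 297).

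Among the 109 enzyme genes, 37 (33.9%) were called higher in *Filip1l*-knockdown tumors and 2 (1.83%) lower. Over all 15687 genes 10.2% were called, 6.2% higher and 3.97% lower. The median log2 fold change was 0.64 over the enzyme genes and 0.01 over all genes. The higher calls fell in 7 of the 8 families. They were 7 of 29 Cyp, 6 of 10 Ces, 3 of 18 Aldh, 4 of 13 Akr1, 6 of 10 Ugt, 7 of 19 Gst and 4 of 7 Sult genes, and 0 of 3 Fmo genes. The 2 lower calls were *Aldh1a2* and *Akr1c18*. A further 24 genes passed the adjusted p alone, 16 with a higher and 8 with a lower value. The groups did not overlap for 34 genes with *Filip1l*-knockdown tumors above (10.6% of all genes did so) and for 5 with *Filip1l*-knockdown tumors below (10.9% of all genes). Each such gene had p = 0.00216 by exact permutation (two-sided), the smallest value that 6 against 6 tumors allow. No gene in the table had a mean below 9.28 normalized counts, and 9 of the 109 genes had a CTL mean below this, so they are in the table through their *Filip1l*-knockdown values (6 of them were called higher), and 2 the other way round. Within *Filip1l*-knockdown tumors, replicate 1 had the lowest value for 26 of the 37 genes called higher, and for 464 of the 973 such genes over the whole table (47.7%). Without this tumor 39 enzyme genes were called higher, of which 36 were among the 37.

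**Figure D2:**
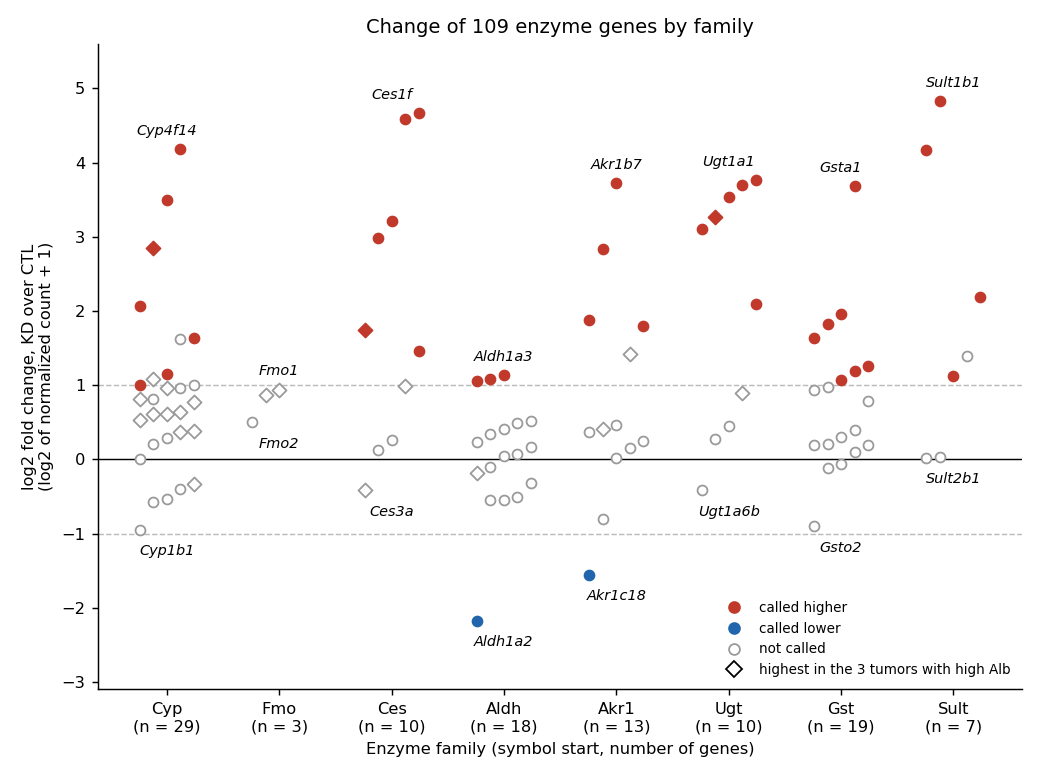
Log2 fold change (*Filip1l*-knockdown over CTL, on log2 of the normalized count plus 1) of the 109 enzyme genes by family, with 1 point a gene. Filled points passed both thresholds, diamonds mark the 22 genes highest in the 3 tumors with high *Alb*, dashed lines stand at 1 and -1, and the highest fitted values are 4.83 for *Sult1b1* and 4.67 for *Ces1f*, an order that depends on the pseudocount.

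The sequence before the start site is shown for 4 called genes of different families, because many members moved together and the letters show what kind of promoter they have. RefSeq promoters (build GRCm38.p6) were given for 91 of the 109 genes and for 34 of the 37 called higher. The 250 bases before the start site held a median of 2 CG pairs in the 34 genes called higher, 4 in the 55 that were not called and 15 in the 11533 listed genes with a promoter. *Ugt1a1* (chr1:88211709-88211958, + strand), *Akr1b7* (chr6:34412112-34412361, + strand) and *Sult1b1* (chr5:87538196-87538445, - strand) were called higher, and *Aldh1a2* (chr9:71215539-71215788, + strand) was called lower. They had the largest fitted changes of their families at a pseudocount of 1. At a pseudocount of 8 *Ugt1a1* was at 2.58, below *Ugt2b35* at 3.58. They hold 2, 3, 0 and 40 CG pairs. The *Sult1b1* sequence belongs to the first of 2 listed starts. Capitals mark matches, on either strand, to AGTTCA in *Ugt1a1*, CAATAAA in *Akr1b7*, AGTTCA in *Sult1b1*, and GCGTG and TGACNNNGC in *Aldh1a2*.
*Ugt1a1*: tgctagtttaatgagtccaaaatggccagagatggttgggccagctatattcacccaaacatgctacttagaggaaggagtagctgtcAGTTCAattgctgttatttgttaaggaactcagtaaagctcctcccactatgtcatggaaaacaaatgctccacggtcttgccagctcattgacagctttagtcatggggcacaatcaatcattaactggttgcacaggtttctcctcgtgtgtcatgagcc
*Akr1b7*: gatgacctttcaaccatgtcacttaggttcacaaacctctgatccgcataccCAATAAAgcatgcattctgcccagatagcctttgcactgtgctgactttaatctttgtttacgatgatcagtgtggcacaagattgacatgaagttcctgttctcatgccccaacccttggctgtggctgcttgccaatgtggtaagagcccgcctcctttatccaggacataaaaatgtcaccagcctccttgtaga
*Sult1b1*: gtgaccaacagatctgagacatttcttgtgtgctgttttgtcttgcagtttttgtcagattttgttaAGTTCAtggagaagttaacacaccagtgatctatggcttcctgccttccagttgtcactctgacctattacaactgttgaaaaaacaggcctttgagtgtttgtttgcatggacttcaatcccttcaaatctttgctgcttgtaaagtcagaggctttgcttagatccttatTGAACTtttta
*Aldh1a2*: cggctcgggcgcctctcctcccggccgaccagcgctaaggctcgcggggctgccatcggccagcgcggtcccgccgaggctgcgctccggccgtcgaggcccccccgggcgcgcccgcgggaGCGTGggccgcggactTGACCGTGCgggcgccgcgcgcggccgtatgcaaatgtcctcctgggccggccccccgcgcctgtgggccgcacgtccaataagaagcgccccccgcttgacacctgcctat
Motifs were searched on both strands of the 300 bases from 250 before to 50 after the first listed start. AGTTCA, the core that PXR binds as a repeat, was in 3 of 34 promoters of genes called higher (8.82%) and in 10.1% of those of listed genes. CAATAAA, a CDX site, was in 3 of 34 (8.82%) and 2.75%, and CAAAGTCCA, an HNF4 site, in 1 of 34 (2.94%) and 0.442%. GCGTG, the dioxin response core, was in 2 of 34 (5.88%) and 49%, and TGACNNNGC, the antioxidant response core, in 4 of 34 (11.8%) and 14.8%. In the 55 promoters of enzyme genes not called, AGTTCA was in 14.5%, CAATAAA in 3.64% and CAAAGTCCA in 5.45%. GCGTG was in 34.5% of them and TGACNNNGC in 5.45%. The motifs do not contain each other, and a match is a description of the letters only.

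*Cyp4f14*, which ω-hydroxylates leukotriene B4 and other lipids, ran from 36 to 77.6 normalized counts in CTL tumors (median 68.5) and from 527 to 1757 in *Filip1l*-knockdown tumors (median 1111). All 6 *Filip1l*-knockdown tumors were above all CTL tumors, at a log2 fold change of 4.18 (standard error 0.27, adjusted p = 9.04e-08). Its neighbour *Cyp4f40* ran from 15.2 to 47.8 (median 19.7) and from 131 to 394 (median 329), again without overlap, and had a log2 fold change of 3.49 (standard error 0.31, adjusted p = 1.31e-06). On chromosome 17 these genes lie between 32506050 and 32947402 (GRCm38) with 3 further Cyp4f members and 3 other listed genes, none of which was called, although *Cyp4f16* and *Cyp4f17* passed the adjusted p with log2 fold changes of 0.29 and -0.57. *Cyp2c65*, which oxidizes arachidonic acid and is known from stomach and gut, ran from 199.8 to 657 (median 433) and from 542 to 3149 (median 1967). The groups overlapped because *Filip1l*-knockdown replicate 1, at 542, lay below CTL replicates 5 and 6, and the log2 fold change was 2.07 (standard error 0.40, adjusted p = 0.000781).

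Other called P450s were *Cyp2s1*, an epithelial P450 outside the liver, with 1547 ± 306 in CTL and 4961 ± 1457 in *Filip1l*-knockdown tumors (mean ± SD, n = 6 each here and below; log2 fold change 1.64, adjusted p = 2.8e-05). *Cyp3a13*, the Cyp3a gene of the mouse gut, went from 628 ± 109 to 1421 ± 370.4 (log2 fold change 1.15, adjusted p = 6.15e-05). *Cyp2j6*, a P450 of fatty acids, went from 394 ± 61.1 to 801 ± 175 (log2 fold change 1.00, adjusted p = 8.81e-05), and lay close to the fold threshold. *Cyp2d26* was at or under 3 reads in 3 CTL tumors and highest in the 3 tumors with high *Alb*, at a log2 fold change of 2.84 (standard error 0.86, adjusted p = 0.0164) and 3.10 without those tumors (limma adjusted p = 0.00797). The P450s with the highest counts among those not called had lower values. *Cyp1b1*, which oxidizes estradiol and retinol and is a target of the aryl hydrocarbon receptor, was at 1396 ± 369 and 781 ± 417 (log2 fold change -0.96, adjusted p = 0.0149), with *Filip1l*-knockdown replicates 1 and 3 inside the CTL range of 969 to 2021 and the other 4 below it. *Cyp4b1*, a P450 of the lung, was at 1138 ± 140.4 and 786 ± 76.0 (log2 fold change -0.53, adjusted p = 0.000289), and its groups did not overlap.

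Of the 3 Fmo genes limma called 0, and 1 passed the adjusted p alone. *Fmo5*, an intestinal and hepatic monooxygenase, was at 154 ± 93.1 and 257 ± 70.4 (log2 fold change 0.86, adjusted p = 0.0351). *Fmo2*, the main monooxygenase of lung in many mammals, was at 31.8 ± 12 and 67.1 ± 83.1, with 234 in *Filip1l*-knockdown replicate 1 (log2 fold change 0.50, adjusted p = 0.482).

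Of the 10 carboxylesterases, which cleave esters of drugs and lipids, 6 were called higher, all from low levels. The genes lie on chromosome 8, where the median gene had a log2 difference of -0.20. *Ces1f* ran from 0 to 22.4 normalized counts in CTL tumors (median 9.99) and from 41.3 to 473 in *Filip1l*-knockdown tumors (median 226). The groups did not overlap, and the log2 fold change was 4.67 (standard error 0.75, adjusted p = 0.000193). *Ces2e*, of the intestinal Ces2 group, ran from 5.68 to 25.4 (median 14.3) and from 48.4 to 179 (median 151), without overlap, and its log2 fold change was 3.22 (standard error 0.39, adjusted p = 1.73e-05). In both genes *Filip1l*-knockdown replicate 1 was the lowest of its group. *Ces1g*, which hydrolyzes triglycerides, was at or under 3 reads in 4 CTL tumors and at 73.8 ± 53.1 in *Filip1l*-knockdown tumors (log2 fold change 4.59, adjusted p = 0.000228). *Ces2c* went from 6.10 ± 3.50 to 65.4 ± 46.6 (log2 fold change 2.98, adjusted p = 0.000562), *Ces2a* from 15.2 ± 8.29 to 47.0 ± 33.9 (log2 fold change 1.46, adjusted p = 0.0151), and *Ces1d*, a lipase of liver and fat, from 21.4 ± 30.9 to 53.3 ± 38.1 (log2 fold change 1.75, adjusted p = 0.0435). *Ces1d* was highest in the 3 tumors with high *Alb*, and had a log2 fold change of 1.74 without them (limma adjusted p = 0.0119). It was no longer called on leaving out any of 9 tumors singly (limma adjusted p up to 0.100), nor at a pseudocount of 8 or without the mean-variance trend. The 4 Ces1 genes span chr8:93099015-93337308 and the 5 Ces2 genes chr8:104734003-104969537, and no other listed gene lies within either stretch. In the Ces2 stretch the most abundant member did not follow its neighbours, since *Ces2g* was at 2169.8 ± 906 and 2275 ± 697 (log2 fold change 0.13, adjusted p = 0.767) and *Ces2f* at 46.4 ± 25.2 and 54.8 ± 24.6 (log2 fold change 0.25, adjusted p = 0.635). Per kilobase of exon, *Ces2g* had 637 normalized counts in *Filip1l*-knockdown tumors and the called Ces genes had 19.9 to 71.

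The enzymes that make retinoic acid changed in opposite directions. *Aldh1a3*, which oxidizes retinal and is known as a marker of aggressive epithelial tumors, ran from 6005 to 10164 normalized counts in CTL tumors (median 8316) and from 15264 to 20154 in *Filip1l*-knockdown tumors (median 18219). The groups did not overlap, and the log2 fold change was 1.13 (standard error 0.11, adjusted p = 2.33e-06). *Aldh1a2*, which carries out the same reaction and is known from mesenchymal cells, ran from 141 to 1098 (median 298) and from 42.8 to 263 (median 57.1). CTL replicate 4 was the highest, and *Filip1l*-knockdown replicate 1 lay above CTL replicate 1, so that the groups overlapped (log2 fold change -2.18, standard error 0.48, adjusted p = 0.0022, exact permutation p = 0.00433). *Aldh1a1*, named after its values were seen, belonged to the genes highest in the 3 tumors with high *Alb*, and was at 143 ± 78.9 and 128 ± 66.3 (log2 fold change -0.18, adjusted p = 0.749). Per kilobase of exon, *Aldh1a3*, *Aldh1a2* and *Aldh1a1* had 1802, 187 and 28.9 normalized counts in CTL and 3915, 41.6 and 26.0 in *Filip1l*-knockdown tumors, so *Aldh1a3* was the most abundant of them in both groups.

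*Aldh1b1*, a mitochondrial enzyme of acetaldehyde and retinal, ran from 44.7 to 202 (median 67.9) and from 137 to 220.1 (median 179). CTL replicate 5 reached into the *Filip1l*-knockdown range, and the log2 fold change was 1.09 (standard error 0.32, adjusted p = 0.0131). *Aldh1l1*, which oxidizes formyltetrahydrofolate, went from 1361 ± 311 to 2806 ± 432 (log2 fold change 1.06, adjusted p = 7.22e-05). *Aldh2*, which clears acetaldehyde, was not called at 14170.5 ± 1618 and 9912 ± 899.5 (log2 fold change -0.51, adjusted p = 0.000184), although the *Filip1l*-knockdown tumors were all below the CTL tumors. *Aldh9a1*, which makes carnitine and GABA precursors, was at 2359.5 ± 121 and 3144 ± 444 (log2 fold change 0.40, adjusted p = 0.00167). The other 11 Aldh genes that were not called, apart from *Aldh1a1*, had log2 fold changes from -0.55 to 0.51.

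Other genes of retinoid handling were taken from a list of 28, of which 22 were in the table, 5 called higher and 2 lower. The intestinal retinol carrier *Rbp2* went from 289.7 ± 64.3 normalized counts to 849 ± 343 (log2 fold change 1.45, adjusted p = 0.000644) and *Rbp7*, of low level, from 5.18 ± 2.65 to 37.3 ± 12.8 (log2 fold change 2.69, adjusted p = 6.41e-05). *Adh1*, an alcohol dehydrogenase that also oxidizes retinol, went from 84.2 ± 70.2 to 255 ± 99.8 (log2 fold change 1.89, adjusted p = 0.0045). *Cyp26b1*, which degrades retinoic acid, went from 187 ± 45.6 to 414 ± 139 (log2 fold change 1.10, adjusted p = 0.00259), and *Ttr*, a plasma carrier of retinol-binding protein, from 448 ± 137 to 938 ± 259 (log2 fold change 1.08, adjusted p = 0.00137). In the other direction, the secreted carrier *Rbp4* ran from 1479 to 1923 and from 295 to 951 (log2 fold change -1.60, adjusted p = 4.39e-05), and the retinoic acid carrier *Crabp1* went from 123 ± 109.5 to 43.9 ± 21.0 (log2 fold change -1.26, adjusted p = 0.0425). The retinol dehydrogenase *Rdh10*, which had the highest counts of those not called, was at 4504 ± 660.1 and 2848 ± 289 (log2 fold change -0.65, adjusted p = 0.000127), and all *Filip1l*-knockdown tumors were below all CTL tumors. The receptor *Rarg* and the uptake receptor *Stra6*, named after their values were seen, had log2 fold changes of -0.82 (adjusted p = 3.19e-07) and -0.85 (adjusted p = 0.0158).

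**Figure D3:**
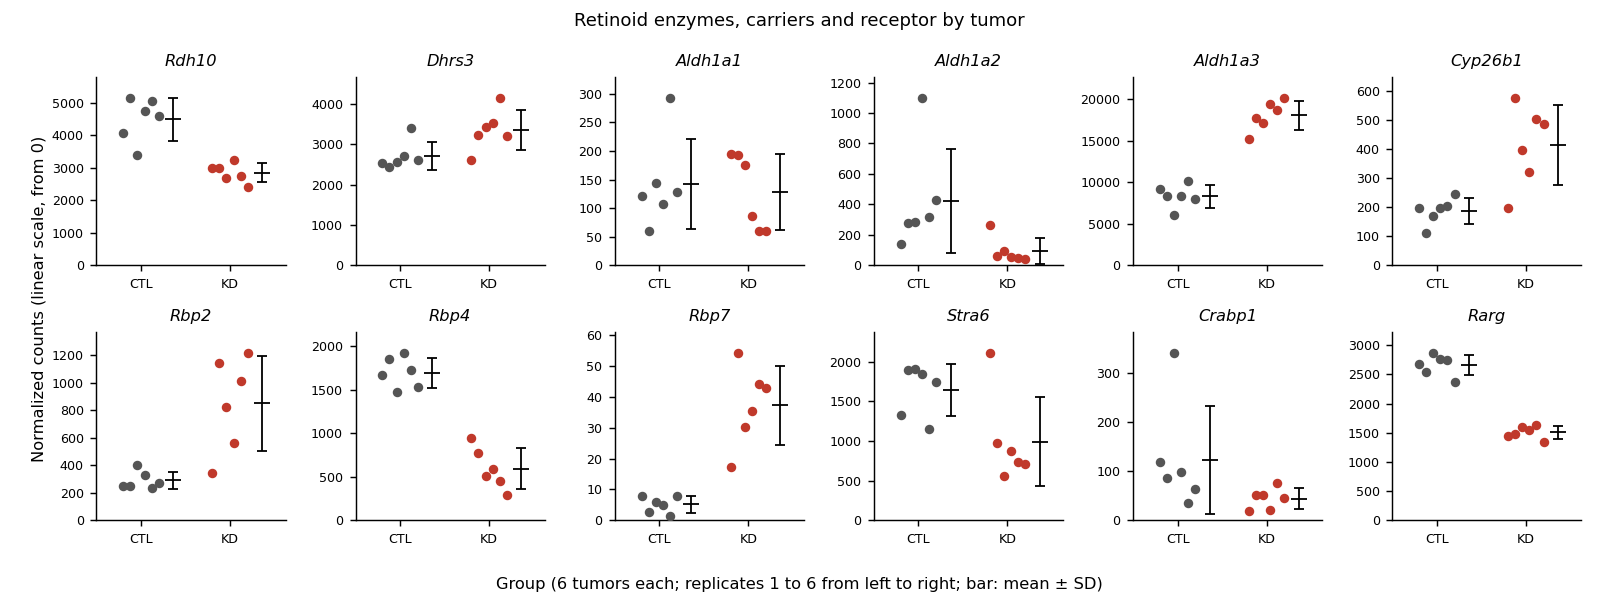
Normalized counts (linear axes from 0) of 12 genes of retinoid metabolism in the 6 CTL and 6 *Filip1l*-knockdown (KD) tumors, with points for tumors in replicate order and bars for mean ± SD. *Aldh1a3* is at 6005 to 10164 in CTL and 15264 to 20154 in KD tumors without overlap, *Rbp7* lies above and *Rbp4* below the CTL range, and *Aldh1a1* overlaps between groups.

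Aldo-keto reductases reduce aldehydes and ketosteroids. *Akr1b7*, which reduces lipid aldehydes and makes prostaglandin F, ran from 48.0 to 110.2 normalized counts in CTL tumors (median 83.7) and from 642 to 1827 in *Filip1l*-knockdown tumors (median 989), without overlap (log2 fold change 3.72, standard error 0.27, adjusted p = 2.19e-07). Its promoter is printed above. The other 3 Akr1b genes, within 121 kb of chromosome 6, were not called, and *Akr1b8*, the most abundant, was at 2058 ± 237 and 2692 ± 489 (log2 fold change 0.37, adjusted p = 0.0196). In the Akr1c cluster of chromosome 13 the members differed in direction. *Akr1c12* ran from 74.0 to 148 (median 113) and from 423 to 1221 (median 880.1), and *Akr1c13* from 207 to 306 (median 255) and from 559 to 1332 (median 1032). Neither overlapped between groups, and the log2 fold changes were 2.84 (standard error 0.24, adjusted p = 7.76e-07) and 1.88 (standard error 0.18, adjusted p = 2.47e-06). *Akr1c19* went from 389.6 ± 196 to 1224 ± 332 (log2 fold change 1.80, adjusted p = 0.000685). *Akr1c18*, which inactivates progesterone, fell from 18.2 ± 4.83 to 6.24 ± 3.28 (log2 fold change -1.56, adjusted p = 0.00735), a change at low counts. The sequences of *Akr1c12* and *Akr1c13* share 7.1% and 5.6% of their windows of 150 bases with other genes, mostly with each other, so reads from these stretches match both genes. *Akr1a1*, a general aldehyde reductase, was at 17612 ± 1422 and 20946 ± 1818 (log2 fold change 0.25, adjusted p = 0.013), and per kilobase of exon it was among the most abundant of the 109 genes, with 6404 and 7617 normalized counts.

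The glucuronosyltransferases split by subfamily. All 5 listed Ugt2 genes were called higher, with log2 fold changes of 2.09 to 3.70, and 1 of 5 Ugt1a genes. *Ugt2b35* ran from 50.2 to 108 normalized counts in CTL tumors (median 82.2) and from 749 to 1841 in *Filip1l*-knockdown tumors (median 928), without overlap (log2 fold change 3.70, standard error 0.23, adjusted p = 6.42e-08). *Ugt2a3*, known from gut and liver, ran from 17 to 43.3 (median 25.1) and from 156 to 586 (median 317), without overlap (log2 fold change 3.53, standard error 0.32, adjusted p = 1.42e-06). *Ugt2b36* ran from 4.73 to 62.7 (median 16.5) and from 107 to 243 (median 155), and its highest CTL tumor, replicate 5, was still below every *Filip1l*-knockdown tumor (log2 fold change 3.11, standard error 0.43, adjusted p = 5.55e-05). *Ugt2b34* was the most abundant, with 2691 ± 651 and 11632 ± 3626 (log2 fold change 2.09, adjusted p = 2.31e-06). Per kilobase of exon it had 2698 normalized counts in *Filip1l*-knockdown tumors, and the other Ugt2 genes had 26.1 to 316. *Ugt2b5* had 12.3 ± 24.8 and 48.4 ± 14.8 (log2 fold change 3.27, adjusted p = 0.00191). Its CTL value rests on CTL replicate 5, a tumor with high *Alb*, and without the 3 such tumors the log2 fold change was 3.81 (limma adjusted p = 3.46e-05).

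These genes are neighbours. Between 86889767 and 87569027 on chromosome 5 lie the 5 Ugt2 genes, *Sult1b1* and *Sult1d1*, and 1 other listed gene, which was not called. *Ugt1a1*, the bilirubin transferase whose promoter is printed above, was at or under 3 reads in 2 CTL tumors, at 0.947 to 8.96 in all, and at 43.2 to 115 in *Filip1l*-knockdown tumors (log2 fold change 3.77, adjusted p = 4.1e-06). The Ugt1a genes have their own first exons and share the rest, and 49.1% to 65.4% of their windows of 150 bases occur in other genes. The study counted unique gene hits, so reads of the shared part may be left out, and the levels of these genes are uncertain. *Ugt1a7c* was at 1443 ± 115 and 1977 ± 286 (log2 fold change 0.45, adjusted p = 0.0013), and *Ugt1a6b* at 104 ± 18 and 78.4 ± 22.1 (log2 fold change -0.42, adjusted p = 0.0886). The summed level of all 10 Ugt genes was 3244 to 5459 normalized counts in CTL and 10979 to 22729 in *Filip1l*-knockdown tumors, without overlap. *Ugt2b34* alone made the largest part of this sum, at 1736 to 3554 and 8035 to 17413, so the sum does not describe every gene of the family.

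Of the 19 glutathione S-transferases, which conjugate electrophiles, 7 were called higher, in the alpha, mu, pi and theta classes. *Gsta1* ran from 18 to 41.4 normalized counts in CTL tumors (median 25.4) and from 114 to 791 in *Filip1l*-knockdown tumors (median 418), without overlap (log2 fold change 3.68, standard error 0.39, adjusted p = 5.43e-06). Of its windows of 150 bases 68.4% occur in other genes, mostly in *Gm3776*, so the value is uncertain. The theta genes *Gstt1* and *Gstt3* lie within 63.3 kb on chromosome 10 with *Gstt2*, which was not called. *Gstt1* ran from 163 to 356 (median 243) and from 546 to 1237 (median 962), and *Gstt3* from 229 to 357 (median 274) and from 615 to 1121 (median 903). Neither overlapped, and the log2 fold changes were 1.82 (standard error 0.24, adjusted p = 3.31e-05) and 1.64 (standard error 0.15, adjusted p = 1.52e-06).

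*Gsta3* went from 2117 ± 756 to 4819 ± 874 (log2 fold change 1.26, adjusted p = 0.000601), *Gstm2* from 817 ± 176 to 1896 ± 496 (log2 fold change 1.20, adjusted p = 0.000123) and *Gstm7* from 7.24 ± 3.50 to 30.3 ± 10.8 (log2 fold change 1.96, adjusted p = 0.000546). *Gstp2* went from 153 ± 17.6 to 328 ± 76.4 (log2 fold change 1.07, adjusted p = 6.43e-05), with 35.7% of its windows shared, mostly with *Gstp1*. The most abundant Gst genes were not called. *Gsta4*, which conjugates the lipid aldehyde 4-hydroxynonenal, was at 8654 ± 2413 and 15072 ± 4431 (log2 fold change 0.79, adjusted p = 0.0149) and had the highest level per kilobase of exon of the 109 genes, with 6835 and 11905 normalized counts. *Gsto1*, of the omega class, was at 10345 ± 1603 and 12089.7 ± 2581 (log2 fold change 0.21, adjusted p = 0.278). *Gstp2*, *Gsto1* and *Cyp2c65* lie on chromosome 19, where the median gene had a log2 difference of -0.36, and with chromosome medians removed *Gsto1* had 0.57 (limma adjusted p = 0.00742).

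Among the sulfotransferases, *Sult1b1*, which sulfates thyroid hormone and phenols and is known from gut and liver, ran from 0.947 to 16.9 normalized counts in CTL tumors (median 5.03) and from 74.6 to 268 in *Filip1l*-knockdown tumors (median 205). It was at or under 3 reads in 3 CTL tumors, the groups did not overlap, and the log2 fold change was 4.83 (standard error 0.49, adjusted p = 3.83e-06). *Sult1c2* ran from 300.2 to 1276 (median 1051) and from 2191 to 5546 (median 4102), and *Sult1a1*, which sulfates phenols, from 81.4 to 146 (median 118) and from 194 to 321 (median 258). Neither overlapped, and the log2 fold changes were 2.19 (standard error 0.33, adjusted p = 0.000118) and 1.12 (standard error 0.15, adjusted p = 3.63e-05). *Sult6b2* was near 0 in CTL tumors, with 1 read in all 6 together, and had 142 reads in *Filip1l*-knockdown tumors, as inferred from the step that 1 read makes in each tumor's values. In CTL replicate 1, which held the 1 read, that step was 1.00 normalized counts. The ratio after scaling was 134. Its exact 95% interval of 23.7 to 5338 pools the reads of each group, so it covers counting error only. It leaves out the spread between tumors, which was 5.21 to 38.9 normalized counts in *Filip1l*-knockdown tumors. The CTL mean of 0.167 was below the lowest mean of a listed gene, 9.28. *Sult6b2* is therefore in the table through its *Filip1l*-knockdown values, and with CTL near 0 the listing already required a large ratio. The fitted log2 fold change of 4.16 (limma adjusted p = 1e-05) depends on the pseudocount, from 1.79 to 5.02 over the alternatives. *Sult1d1*, which sulfates catecholamines and lies beside *Sult1b1*, was at 114 ± 84.5 and 233 ± 100.2 (log2 fold change 1.39, adjusted p = 0.0566), and *Sult2b1*, a cholesterol sulfotransferase, at 469.9 ± 84.3 and 478 ± 86.6 (log2 fold change 0.02, adjusted p = 0.911).

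**Figure D4:**
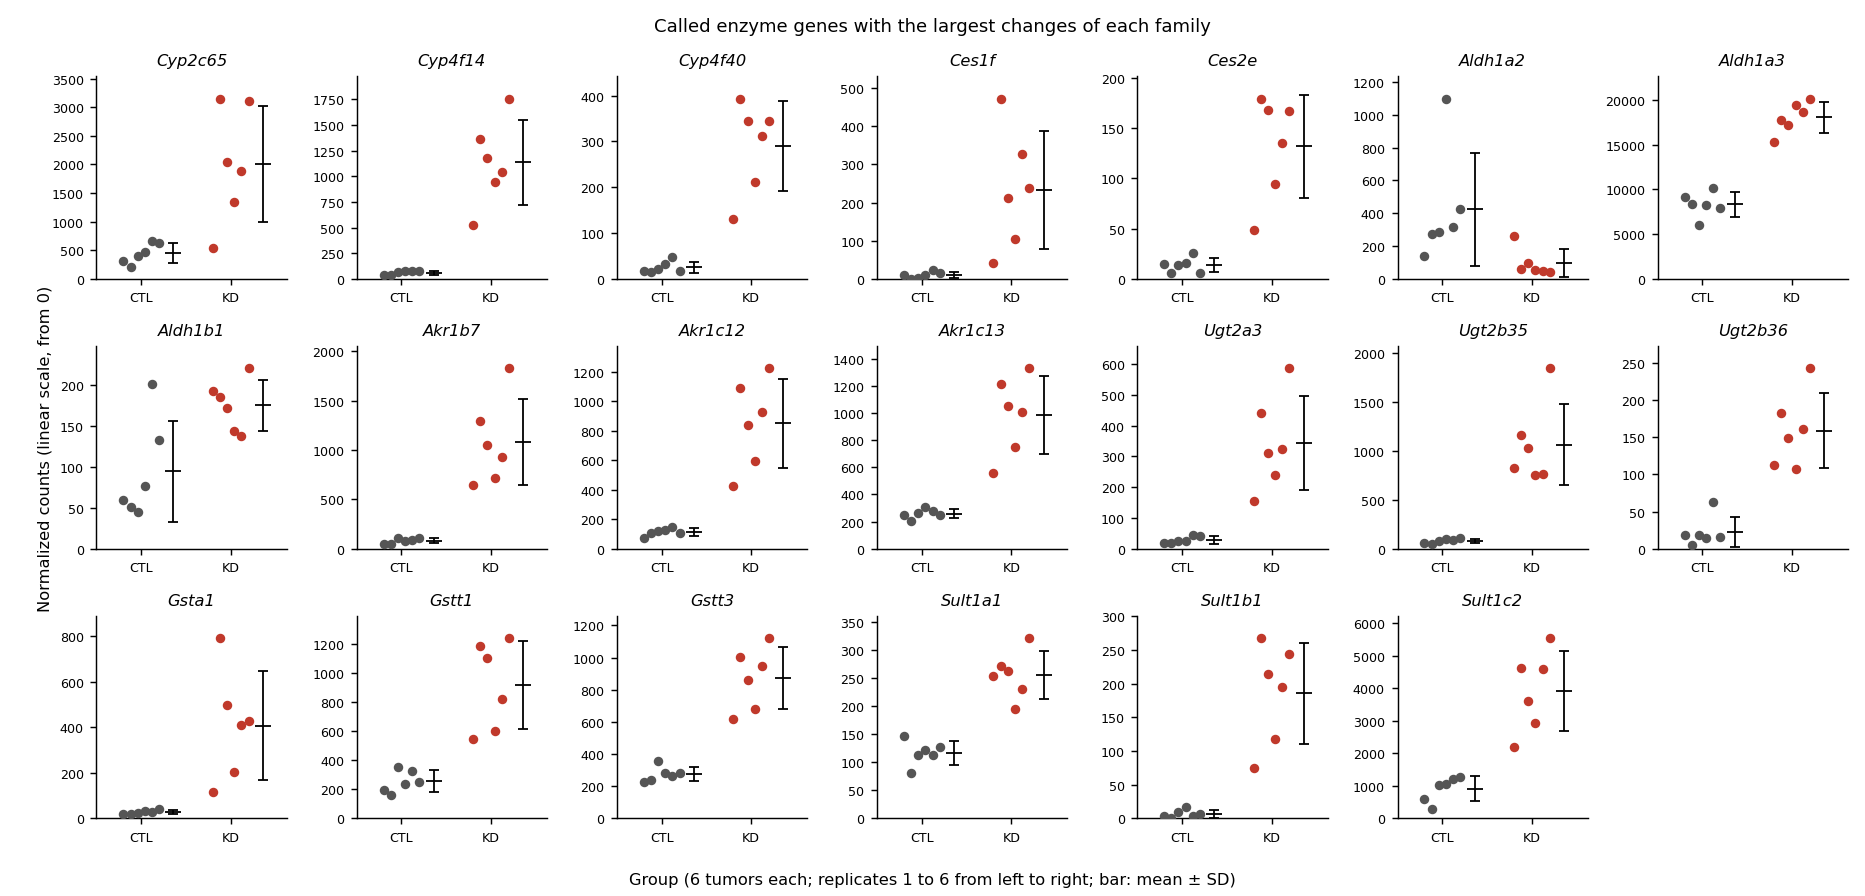
Normalized counts (linear axes from 0) of called genes of each family, in 6 CTL and 6 *Filip1l*-knockdown (KD) tumors, with points for tumors in replicate order and bars for mean ± SD. *Cyp4f14* is at 36 to 77.6 in CTL and 527 to 1757 in KD tumors, and KD replicate 1, the leftmost KD point, is often the lowest of its group.

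The receptors that drive such enzymes, the supply of their cofactors and the transporters that export their products were read from lists. Of 11 receptors and partners, limma called 3 higher and 0 lower. A further 3 passed the adjusted p alone, 1 with a higher and 2 with a lower value. *Nr1i2*, the xenobiotic sensor PXR, ran from 37.9 to 70.2 normalized counts and from 198 to 477 (log2 fold change 2.77, adjusted p = 4.88e-07). *Cdx2*, the intestinal homeobox factor, ran from 194 to 317 and from 809.8 to 1439.5 (log2 fold change 2.15, adjusted p = 1.24e-07). It is also in the list of intestinal enterocyte markers, so its call counts in both lists. *Nr1h4*, the bile acid receptor FXR, went from 212 ± 32.1 to 566 ± 140.2 (log2 fold change 1.39, adjusted p = 5.79e-06). *Hnf4a* had the highest counts of the receptors not called, at 8054 ± 482 and 8890.2 ± 969 (log2 fold change 0.14, adjusted p = 0.152). *Ahr*, the aryl hydrocarbon receptor, and *Nfe2l2*, the antioxidant response factor NRF2, were named after their values were seen, and had log2 fold changes of -0.81 (adjusted p = 8.52e-06) and -0.03 (adjusted p = 0.707).

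Neither of the supply lists held a called gene. Of 6 genes that deliver electrons and heme to P450s limma called 0, 1 passed the adjusted p and 3 passed an unadjusted p under 0.05 (2 with a higher and 1 with a lower value). The gene past the adjusted p was *Alas1*, with a log2 fold change of 0.70 (limma adjusted p = 5.29e-06) and groups that did not overlap. Of 13 genes that supply UDP-glucuronic acid, sulfate donor, glutathione and NADPH limma called 0, 7 passed the adjusted p (5 with a higher and 2 with a lower value) and 8 the unadjusted p. *Cyb5r3*, with the highest counts of the first list, was at 9924 ± 839 and 8598 ± 1176 (log2 fold change -0.21, adjusted p = 0.0686), and *Pgd*, an NADPH-making enzyme with the highest counts of the second, at 6585 ± 476 and 9291 ± 1358 (log2 fold change 0.49, adjusted p = 0.000807). Of 22 other phase I and II enzymes 3 were called higher and 1 lower. These were the epoxide hydrolase *Ephx2* (log2 fold change 1.60, adjusted p = 2.52e-05), the intestinal glutathione peroxidase *Gpx2* (1.80, adjusted p = 4.07e-05), the deacetylase *Aadac* (1.20, adjusted p = 0.0452) and, lower, the monoamine oxidase *Maob* (-1.26, adjusted p = 0.0115). *Xdh*, with the highest counts of those not called, had a log2 fold change of -0.02 (adjusted p = 0.879).

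Of 13 transporters 3 were called higher and 1 lower. *Abcc3*, an exporter of glucuronides, went from 1725 ± 321 to 3665 ± 730.1 (log2 fold change 1.08, adjusted p = 6.61e-05), and *Abcc2*, the apical exporter of conjugates, from 17 ± 26.1 to 65.2 ± 39.6 (log2 fold change 2.94, adjusted p = 0.0115). *Abcc2* was highest in the 3 tumors with high *Alb*, at 68.7 to 130.1 normalized counts against at most 63.98 in the others, and had a log2 fold change of 3.11 without them (limma adjusted p = 0.00732). *Slc51a*, a subunit of the basolateral bile acid exporter, ran from 0 to 3.89 and from 38.3 to 145, with 5 CTL tumors at or under 3 reads (log2 fold change 4.78, adjusted p = 2.04e-06). *Abcb1b*, a drug efflux pump, ran from 1474 to 2586 and from 434 to 1027 and was called lower (log2 fold change -1.75, adjusted p = 9.09e-06). *Abcc4* had the highest counts of those not called, 4109 ± 622 and 5552 ± 355 (log2 fold change 0.45, adjusted p = 0.00123). *Abcc4* lies on chromosome 14, where the median gene had a log2 difference of 0.38, and with chromosome medians removed its value was 0.06 (limma adjusted p = 0.58).

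**Figure D5:**
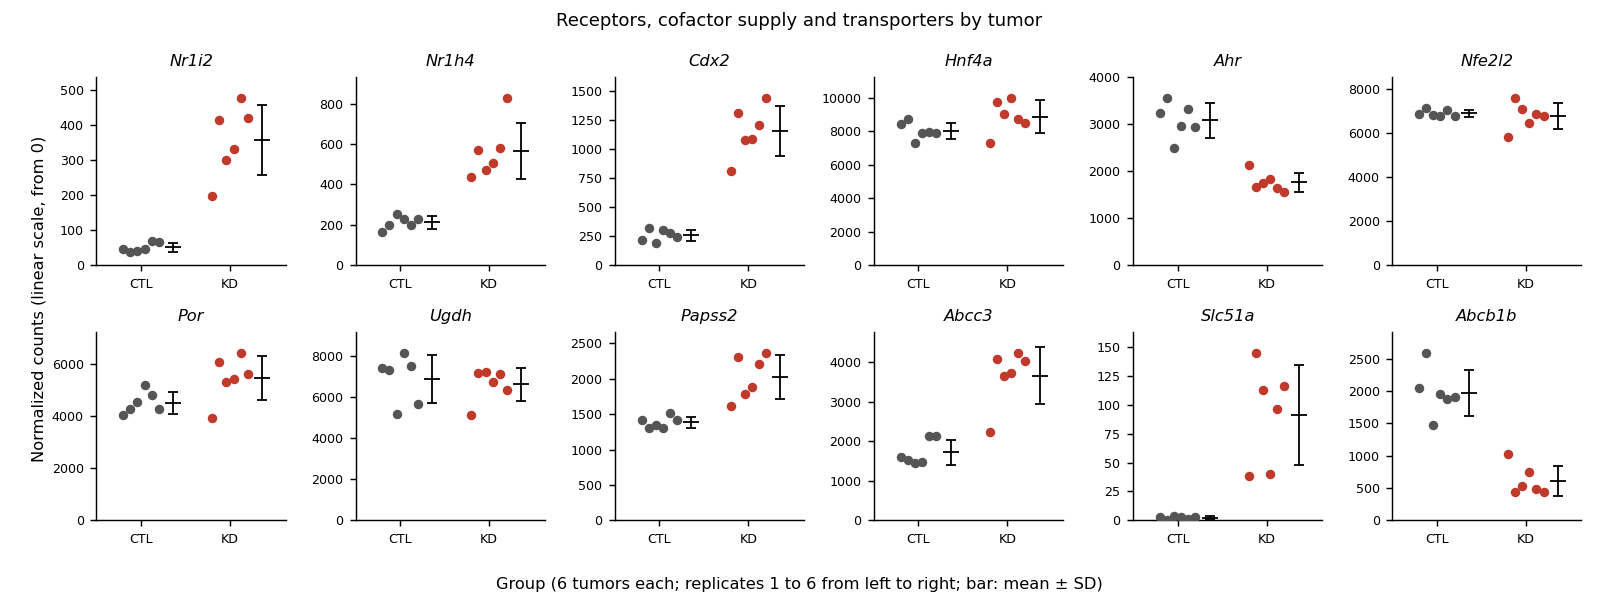
Normalized counts (linear axes from 0) of receptors, cofactor genes and transporters in 6 CTL and 6 *Filip1l*-knockdown (KD) tumors, with points for tumors in replicate order and bars for mean ± SD. *Nr1i2* is at 37.9 to 70.2 in CTL and 198 to 477 in KD tumors and *Cdx2* at 194 to 317 and 809.8 to 1439.5, while *Hnf4a*, *Nfe2l2* and *Ugdh* overlap between groups.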

How the data were processed

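RNA-seq was done on 12 tumors, 6 CTL and 6 *Filip1l*-knockdown, grouped by the labels. The authors deposited normalized counts, a signal of reads per gene divided by a size factor from DESeq2. The submitters' processing notes name bcl2fastq 2.20, Trimmomatic 0.36, STAR 2.5.2b, featureCounts of Subread 1.5.2 and build mm10. Strand use in counting is not given in the sources used here, so reads of a gene and an antisense partner cannot be told apart. Values were whole multiples of a step in every tumor, read as 1 read (0.865 to 1.49 normalized counts), which gave 17834745 to 32419578 reads on listed genes. In CTL replicates 1 and 4 and *Filip1l*-knockdown replicate 1 the step was within 1% of 1 normalized count, so these values could not be told apart from unscaled reads by their steps, and no count test across genes was run.

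Values were tested as log2(value + 1) with limma 3.58.1 (R 4.3.3, mean-variance trend), with Benjamini-Hochberg adjustment over 15687 genes. Fold changes on this scale understate changes of low genes. A mean of at least 5 normalized counts was required, which removed 0 genes. Exact permutation tests were two-sided. Python 3.11.15, numpy 2.4.6, pandas 2.3.3 and matplotlib 3.10.9 were used, and the fit was tested on simulated data. Symbols came from GENCODE vM21 (15655 identifiers matched, 32 did not) and promoters from RefSeq. Levels per kilobase divide by exon length.

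Members and gene lists were chosen with earlier results of these data known. Some items are not reported here and were left out of the lists, so list counts do not include them. All called genes were named, with every-tumor ranges for the 3 largest changes of a family at a mean of at least 50 normalized counts, and up to 2 of the not called genes with the highest counts per family and 1 per list. The members that followed *Alb*, *Aldh1a1*, *Cyp4f16*, *Cyp4f17*, *Gstt2*, *Rarg*, *Stra6*, *Ahr*, *Nfe2l2*, *Alas1*, *Ugdh* and, in plots only, *Dhrs3*, *Por* and *Papss2* were named after their values were seen. Whether tumors came from separate mice is not stated per sample, so p-values measure the spread between these samples. They do not measure the spread between separately transduced cell populations. Other pseudocounts, filters, scalings, variance models and left-out tumors were tried.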

Additional observations from a re-analysis of the deposited data

Results flagged for a closer look

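In 8 of 158 groups of 6 tumors (79 named genes in 2 groups each, 5.06%), the highest or lowest tumor stood further from its nearest neighbour than Dixon's test allows on the log2 scale, and chance gives about 1 in 20. *Filip1l*-knockdown replicate 1 was the tumor in 3 of them, with the lowest *Cyp2s1* (2439 normalized counts), *Aldh2* (8132) and *Abcc3* (2244) of its group. It also had the highest fibroblast marker sum of its group. CTL replicate 5, a tumor with high *Alb*, had the highest *Ugt2b5* of its group (62.7). *Akr1c18* was lowest in *Filip1l*-knockdown replicate 5 (0.865), *Ugt1a6b* in CTL replicate 2 (70.1) and *Maob* in CTL replicate 3 (72.9). *Sult6b2* was at 1.00 in CTL replicate 1 and at 0 in the other CTL tumors. The part of these tumors' composition in the values was not tested.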

How the results depend on the processing

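With all tumors kept, the number of enzyme genes called higher ran from 35 to 39 over the alternatives, against 37. Leaving out each tumor in turn gave 34 to 44 called higher and 2 to 4 called lower, with 4 lower without *Filip1l*-knockdown replicate 3. The number lower was 1 with a pseudocount of 8 and 1 with a minimum mean of 20 normalized counts, which removes *Akr1c18*. Called retinoid genes numbered 7, and 4 to 7 with a tumor left out (4 without CTL replicate 2 or *Filip1l*-knockdown replicate 2). The replicate block, the fit with the replicate number as a term, gave 37 higher, 2 lower and 6 retinoid calls, with *Crabp1* the 1 named gene of 79 that lost its call. Tumors with the same replicate number did not deviate together (correlations of -0.269 to 0.099), and no CTL tumor correlated best with its own number, so the numbers were not treated as a pairing. Calls of *Cyp2j6*, *Ces1d*, *Aadac* and *Crabp1* were lost under several settings. *Aldh1b1*, *Aldh1l1*, *Gstp2*, *Cyp26b1* and *Ttr* lost theirs when certain tumors were left out, and *Akr1c18* at a pseudocount of 8, while *Cyp1b1*, *Sult1d1* and *Fmo5* gained a call when certain tumors were left out. Without the 3 tumors with high *Alb*, an alternative chosen after seeing the data, 40 genes were called higher (37 of them shared) and 78 of the 79 genes that the naming rule gave kept their direction and their side of the thresholds. *Fmo2*, not called, went to -0.055. Most genes that followed *Alb* are not among these 79, and 8 of them, not called, also turned in sign (*Cyp2a12*, *Cyp2c70*, *Cyp2d9*, *Cyp3a11*, *Cyp4a10*, *Cyp4a14*, *Ces1c* and *Akr1d1*, for example *Cyp3a11* from 0.61 to -0.63). Of the other named genes, *Sult2b1*, not called, went to -0.017 at equal totals. With a tumor left out, *Ces2g* ran from -0.10 to 0.29, *Sult2b1* from -0.072 to 0.091 and *Xdh* from -0.052 to 0.034. The cause of these changes was not tested. Genes at a few reads, such as *Sult6b2*, are limited by depth.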
